A study of Mus musculus with 54 samples.

Results

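The genes described here encode the proteins of the cytoplasmic ribosome in mouse liver. They were chosen by symbol: Rpl or Rps followed by a digit, or Rplp0, Rplp1, Rplp2 or Rpsa, without pseudogene symbols and the Rps6k kinases. A mean of at least 0.5 FPKM over all libraries was also required. Of 87 symbols that fit the naming rule, 82 reached this mean, 48 named for the large and 34 for the small subunit, among 11759 genes tested and 18079 genes listed. FPKM is the number of fragments per kilobase of transcript, scaled to the mapped reads of the library, so it is a level per length. The 5 symbols left out were Rpl32l at 0.429 FPKM, Rpl28 at 0.176, Rpl37rt at 0.124, Rpl3l at 0.0270 and Rpl39l at 0.0192. The nearest members above the minimum were Rpl10a at 0.576 and Rpl24 at 0.621 FPKM. Rps19bp1 matches the rule but encodes a protein that binds the small subunit protein Rps19 rather than a subunit. Fau and Rack1 encode ribosomal proteins under symbols outside the rule.

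Livers came from female C57BL/6J mice aged 8 to 12 weeks with free access to normal chow under 12 h of light and 12 h of darkness. The groups were mice of the Liver-RE BMAL1-stop-FL line (Liver-RE), mice with a BMAL1 knockout (KO) and wild-type mice (WT), each at ZT0, 4, 8, 12, 16 and 20, with 3 livers per group and 54 in all. ZT is the time in hours after lights on, and BMAL1, encoded by Arntl, is the activating transcription factor of the circadian clock. As background, the name Liver-RE stands for a line in which BMAL1 is put back in the liver while other tissues lack it. The labels used here name no promoter that drives this. The knockout in KO mice is present in the whole animal, and each library is bulk RNA of whole liver, in which fewer cells of a type and less RNA per cell cannot be told apart.

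A ribosome joins a large subunit, which forms peptide bonds, and a small subunit, which reads the messenger RNA, and each holds ribosomal RNA with many proteins at close to equal copy number. Most vertebrate ribosomal protein mRNAs start with a C followed by a run of pyrimidines, the 5′ terminal oligopyrimidine (TOP) tract, through which the kinase complex mTORC1 and the RNA-binding protein LARP1 control their translation. In rodent liver, ribosome production is known to follow feeding and the time of day, and much of that control acts on translation, which RNA levels do not show.

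The first bases of these genes were searched for a run of pyrimidines. Promoter sequence from RefSeq on build GRCm38.p6 was matched by symbol for 61 of the 82 members. A start tract was defined as a C within 5 bases of the annotated start followed by at least 4 bases that are all C or T, on the gene's strand. It was present in 28 of 61 members (45.9%) and in 23.9% of 9111 genes tested with a promoter sequence. The 8 sequences below were picked from the members with a tract, and all but Rps9 recur in the results. Rpl4, Rpl13, Rpl37, Rps12 and Rps7, which also recur, had no tract by this rule. Each gives 20 bases before the start and 15 from it, written 5′ to 3′, with the tract in capitals.
Rpl13a: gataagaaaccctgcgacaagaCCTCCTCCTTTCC
Rpl14: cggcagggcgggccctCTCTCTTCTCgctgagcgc
Rpl27a: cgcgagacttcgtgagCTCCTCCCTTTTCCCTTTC
Rpl15: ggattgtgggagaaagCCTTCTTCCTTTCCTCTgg
Rps9: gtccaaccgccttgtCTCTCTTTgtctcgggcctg
Rps26: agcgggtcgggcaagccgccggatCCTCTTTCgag
Rps10: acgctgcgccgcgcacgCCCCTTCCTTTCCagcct
Rpl22l1: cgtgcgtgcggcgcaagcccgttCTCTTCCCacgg
These windows lie at chr7:45128731-45128765 (minus strand), chr9:120571497-120571531 (plus strand), chr7:109519175-109519209 (plus strand), chr14:18270972-18271006 (minus strand), chr7:3704021-3704055 (plus strand), chr10:128626492-128626526 (minus strand), chr17:27635230-27635264 (minus strand) and chr3:28805488-28805522 (plus strand), in the same order. Tract length ran from 8 bases in Rps9, Rps26 and Rpl22l1 to 20 bases in Rpl27a. The tracts of Rpl27a and Rpl13a (14 bases) run past the end of the window shown. The palindrome CACGTG, the E-box that BMAL1 binds with CLOCK, was found within the 300-base promoters of 6 of 61 members (9.84%) and of 12.2% of all genes tested. A missing match says only that these letters are not in the window.

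Estimated depth was 31.1 ± 3.89 M reads per library (SD, n = 54; range 25.1 to 41.7), with means of 32.3 M in WT, 30.5 in Liver-RE and 30.6 in KO. Some libraries stood apart. KO ZT0 replicate 2 had the highest value of all 54 libraries for 66 of 82 members, against 20.5% of all genes. At ZT12 and ZT16 the libraries numbered 3 differed in 3 members from all those numbered 1 and 2, in every genotype. In WT ZT8 replicate 2, Arntl was 10.6 FPKM against 0.414 and 0.563 in the others of its group. In Liver-RE ZT20 replicate 1 the clock gene Nr1d1 was 10.8 FPKM against 1.12 and 1.64. Clock genes also varied within other Liver-RE groups. Arntl was 1.91 FPKM in ZT0 replicate 3 against 10.6 and 7.75, and 2.75 in ZT12 replicate 3 against 5.95 and 7.49. Arntl was listed at 6.26 to 8.74 FPKM in KO, so the whole-gene value does not check the knockout label. Of 14 hepatocyte markers measured, 3 were lower and 1 higher in KO than in WT, beside 13.5% and 16.5% of all genes. In Liver-RE against KO, 4 were lower and 1, albumin, was higher, beside 26.7% and 7.42% of all genes. The markers' median log2 fold change in that contrast was -0.22. Albumin took 10.2% ± 1.20 of all summed FPKM in WT, 9.57% ± 1.63 in Liver-RE and 4.82% ± 0.920 in KO (SD, n = 18 each).

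The summed level of ribosomal protein mRNAs was on average highest in KO livers and lowest in Liver-RE. It was 4687 ± 893 FPKM in KO, 4089 ± 412 in WT and 3767 ± 499 in Liver-RE (SD, n = 18 each). WT livers lay between 3624 and 4958 with a median of 3939, KO livers between 3712 and 7810 with a median of 4714, and Liver-RE livers between 3161 and 4996 with a median of 3688. The ranges of all 3 genotypes overlapped. KO ZT0 replicate 2 gave the 7810, and without it the KO mean was 4503 ± 449 FPKM (SD, n = 17). As a share of all summed FPKM, the members made up 1.13% ± 0.0905 in WT, 1.095% ± 0.0759 in Liver-RE and 1.35% ± 0.158 in KO (SD, n = 18 each).

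**Figure D1:**
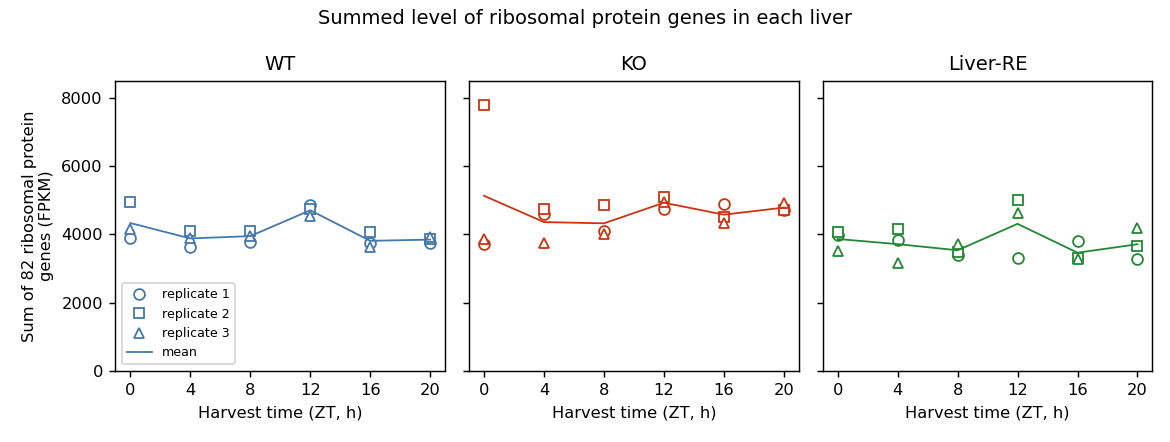
Summed FPKM of the 82 ribosomal protein genes (vertical axis) in each of 54 livers by harvest time in hours (horizontal axis), 1 panel per genotype; symbols are single livers and lines join group means. KO ZT0 replicate 2 stands at 7810, above every other liver, and group means at ZT12 are 4710 in WT and 4310 in Liver-RE.

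KO was compared with WT for the mean level over the day. Of 82 members, 27 were higher in KO and 1, Rpl23a, was lower, while the shares over all genes tested were 16.5% and 13.5% (limma on log2(FPKM + 1), Benjamini-Hochberg adjusted p below 0.05 over all genes). The median log2 fold change was 0.16 for the members and 0.02 for all genes, and 80 of 82 members were above 0. With all livers kept, group means were higher in KO at all 6 times in 36 members, a pattern seen in 10.8% of all genes. They were lower at all 6 times in none, against 8.84%. The KO means at ZT0 include KO ZT0 replicate 2. The members summed to 3712 and 3879 FPKM in the other KO livers at ZT0, below the WT mean of 4334 at ZT0. The count of 36 was not made without this library. Without KO ZT0 replicate 2, 14 of the 27 remained and no other member was higher, so that 17.1% of members stood beside 15.6% of all genes, and the count no longer stood clear of the background. The 14 included Rpl4, Rpl13a, Rpl14, Rpl17, Rpl22l1, Rpl37, Rplp1 and Rps12. No member was lower (14.9%), and the median was 0.12. Counts also fell to 17 without WT ZT8 replicate 1 or without WT ZT16 replicate 1. Members have short transcripts, and other genes with transcripts of up to 1000 bases had a median of 0.07.

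On the log2(FPKM + 1) scale, which understates low genes, the largest rise was in Rpl22l1, a paralogue of the large subunit protein gene Rpl22. Its level in WT ran from 7.55 to 22.2 FPKM with a median of 15.5, and in KO from 11.5 to 31.1 with a median of 20.6. The ranges overlapped, and the log2 fold change was 0.50 ± 0.12 (SE, adjusted p = 0.00173, limma). Rps12, a small subunit head protein gene, had medians of 1.16 FPKM in WT (0.776 to 1.60) and 1.83 in KO (1.09 to 3.45), a log2 fold change of 0.37 ± 0.07. Rpl17, whose protein lines the peptide tunnel, had medians of 1.098 in WT (0.783 to 1.77) and 1.66 in KO (1.25 to 2.44), a log2 fold change of 0.32 ± 0.05. Both are listed at low levels, with about 21 reads per library for Rps12 and 32 for Rpl17. Only 11.1% of the 100-base windows of Rps12 and 22.9% of those of Rpl17 occurred at no other annotated locus. With a pseudocount of 0.1 the log2 fold change was 0.59 for Rps12, 0.52 for Rpl17 and 0.52 for Rpl22l1, so the order depends on the pseudocount.

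Abundant members rose as well. Rplp1, an acidic stalk protein gene that helps recruit elongation factors, was the highest member overall. It ran from 205 to 366 FPKM in WT (median 256) and from 272 to 598 in KO (median 307), a log2 fold change of 0.28 ± 0.07. Rpl4, another peptide tunnel protein gene, ran from 204 to 271 in WT (median 222) and from 228 to 388 in KO (median 286). Its log2 fold change was 0.27 ± 0.06 (adjusted p = 2.7e-04, limma). Rpl13a, Rps26, Rpl37 and Rpl14 had log2 fold changes of 0.26 to 0.27. Rps26 did not pass without KO ZT0 replicate 2 (log2 fold change 0.22, adjusted p = 0.0590, limma), WT ZT0 replicate 1, WT ZT16 replicate 1 or WT ZT16 replicate 2.

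Rpl23a, a protein gene near the tunnel exit, was the exception. It was 1.89 ± 0.378 FPKM in WT and 1.58 ± 0.323 in KO (SD, n = 18 each), a log2 fold change of -0.16 ± 0.06 (SE, adjusted p = 0.0336, limma). The ranges overlapped, at 1.30 to 2.69 in WT and 0.995 to 2.15 in KO. The call was lost on leaving out any of 8 single libraries: KO ZT0 replicate 2, KO ZT4 replicate 3, KO ZT12 replicate 1, KO ZT20 replicate 2, WT ZT0 replicate 3, WT ZT12 replicate 1, WT ZT20 replicate 1 or WT ZT20 replicate 2. Only 20.0% of its 100-base windows occurred at no other annotated locus.

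More members passed between Liver-RE and KO than in the other level contrasts. Against KO, 60 of 82 members were lower in Liver-RE and none higher, where the shares over all genes were 26.7% and 7.42%. The median log2 fold change was -0.26 for members and -0.07 for all genes, and 81 of 82 members were below 0. At all 6 times 62 members had a lower mean in Liver-RE, against 20.3% of all genes, and none a higher one, against 5.05%. The KO means at ZT0 in these counts include KO ZT0 replicate 2, and the counts were not made without it. Without KO ZT0 replicate 2, 50 of the 60 remained at a background of 23.5%, with a median of -0.22. Other genes with transcripts of up to 1000 bases had a median of -0.11. This contrast and that of KO with WT share the KO livers.

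Rpl13a, a large subunit protein gene that hosts small nucleolar RNAs in its introns, had the lowest log2 fold change on the log2(FPKM + 1) scale. With a pseudocount of 0.1 it was -0.50, while Rps12 was at -0.69, Rpl17 at -0.57 and Rpl22l1 at -0.51. Its level ran from 173 to 405 FPKM in KO (median 217) and from 130 to 215 in Liver-RE (median 152). The log2 fold change was -0.49 ± 0.07 (SE, adjusted p = 2.9e-07, limma). Rpl22l1 ran from 6.34 to 26.4 FPKM in Liver-RE (median 15.04), and its log2 fold change against KO was -0.49 ± 0.12. Rps12 fell by 0.43 ± 0.07 on the log2 scale and Rpl27a by 0.41 ± 0.07. Rpl14, Rps7, Rpl37, Rps26, Rplp1 and Rpl17 fell by between 0.35 and 0.39. Rpl4 ran from 180 to 281 FPKM in Liver-RE (median 219), a log2 fold change of -0.33 ± 0.06. Rps6, the small subunit protein phosphorylated by S6 kinases, was 2.69 ± 0.439 FPKM in KO and 1.99 ± 0.409 in Liver-RE (SD, n = 18 each), a log2 fold change of -0.31 ± 0.06.

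Against WT, 2 of 82 members were lower in Liver-RE and none higher, with 5.88% of all genes lower and 1.18% higher. Most other members lay on the same side without passing: 76 of 82 log2 fold changes were below 0, with a median of -0.10 beside -0.06 for all genes, and 39 members had a lower mean at all 6 times (8.64% of all genes) and none a higher one (1.32%). Rpl27a, a large subunit protein gene, ran from 6.998 to 13.7 FPKM in WT (median 10.1) and from 6.29 to 11.3 in Liver-RE (median 7.99). Its log2 fold change was -0.26 ± 0.07 (SE, adjusted p = 0.00966, limma). Rpl13a ran from 153 to 215 FPKM in WT (median 181), and its log2 fold change was -0.22 ± 0.07 (SE, adjusted p = 0.0446, limma). The Rpl13a call was lost on leaving out any of 22 single libraries, while that of Rpl27a held in each.

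**Figure D2:**
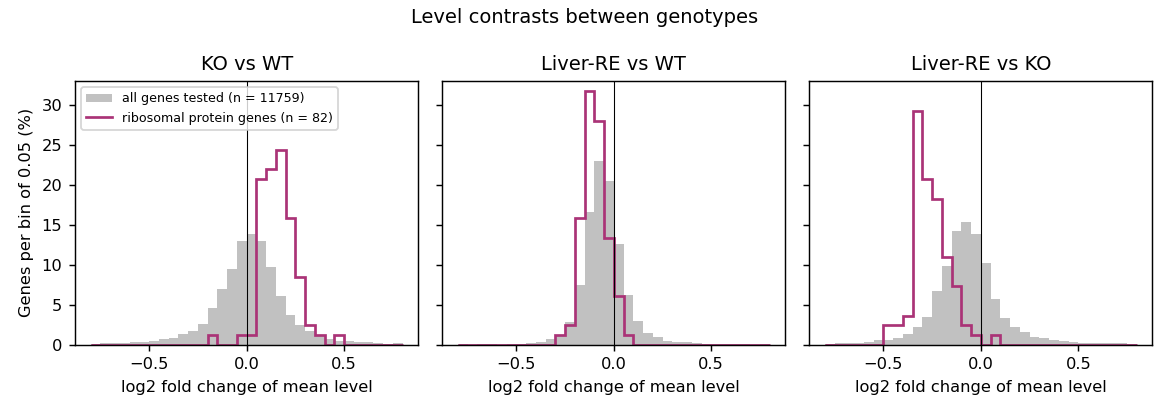
Distribution of log2 fold changes of mean level (horizontal axis) as the percentage of genes per bin of 0.05 (vertical axis), for 82 ribosomal protein genes (line) and all 11759 genes tested (grey). The members' medians are 0.16 for KO vs WT, -0.10 for Liver-RE vs WT and -0.26 for Liver-RE vs KO, beside 0.02, -0.06 and -0.07 for all genes.

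Members of both subunits passed. In KO against WT, 19 of 48 large and 8 of 34 small subunit genes were higher, with medians of 0.17 and 0.15. In Liver-RE against KO, 35 of 48 and 25 of 34 were lower, with medians of -0.26 and -0.27. In the acidic stalk (Rplp0, Rplp1, Rplp2 and Rpl12), 1 of 4 was higher in KO than in WT and 4 of 4 were lower in Liver-RE than in KO. Of 9 genes for proteins around the peptide tunnel and its exit, 5 were higher and 1, Rpl23a, lower in KO, and 7 were lower in Liver-RE than in KO. Of 14 genes for the head of the small subunit, only Rps12 was higher in KO and 10 were lower in Liver-RE than in KO. Rpl5 and Rpl11, which bind 5S ribosomal RNA, had log2 fold changes of 0.11 ± 0.05 and 0.21 ± 0.14 in KO against WT, and only the first passed. Of 9 members listed here as mutated in the human disorder Diamond-Blackfan anaemia, 4 were higher in KO and 7 lower in Liver-RE than in KO. The 4 were Rps7, Rps26, Rpl5 and Rpl35a. None of them passed in KO against WT without KO ZT0 replicate 2 (adjusted p = 0.0590 to 0.0875, limma). The shares over all genes were 16.5% higher in KO than in WT and 26.7% lower in Liver-RE than in KO.

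The variant copies were mixed. Rpl22l1 was higher in KO than in WT, and the call held without any single library. Rps4l, a copy of the Rps4x gene, passed with a log2 fold change of 0.30 ± 0.11. Its call was lost on leaving out any of 9 single libraries: KO ZT4 replicate 2, KO ZT8 replicate 1, KO ZT8 replicate 2, KO ZT12 replicate 3, KO ZT20 replicate 1, KO ZT20 replicate 2, WT ZT4 replicate 2, WT ZT8 replicate 1 or WT ZT20 replicate 2 (0.24 to 0.36 over all single libraries left out). Rpl7l1, Rpl36al and Rps27l did not pass in that contrast, with log2 fold changes of 0.16 ± 0.08, 0.21 ± 0.10 and 0.03 ± 0.09. Against KO, Rpl22l1 and Rpl7l1 were lower in Liver-RE, without loss of the call on leaving out any single library. Rpl36al passed too (log2 fold change -0.26 ± 0.10), but not on leaving out any of 14 single libraries, among them KO ZT0 replicate 2 (-0.20). Rps27l, known as a p53 target, was at 104 FPKM in WT, 99.6 in Liver-RE and 109 in KO. Rps19bp1 was also lower in Liver-RE than in KO (log2 fold change -0.26 ± 0.08). Outside the symbol rule, Rack1 had a log2 fold change of -0.29 ± 0.07 in Liver-RE against KO and passed, while Fau (-0.07 ± 0.08) did not.

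Over the day, the mean summed level was highest at ZT12 in WT and Liver-RE, though not as a share of all FPKM in Liver-RE. In WT it was 4334 ± 554 FPKM at ZT0, 3882 ± 239 at ZT4, 3950 ± 166 at ZT8, 4710 ± 169 at ZT12, 3812 ± 225 at ZT16 and 3849 ± 76.7 at ZT20 (SD, n = 3 each). All 3 WT livers at ZT12 (4530 to 4866) lay above every WT liver at the other times except ZT0 replicate 2 at 4958. In Liver-RE the ZT12 livers were at 3315, 4996 and 4619, and the other 5 times had means of 3464 to 3866. In KO the mean was 4931 ± 173 at ZT12, 4788 ± 127 at ZT20 and 5133 ± 2319 at ZT0, where the livers were at 3712, 7810 and 3879. The sum of all FPKM also varied: it averaged 382300 at ZT12 in WT and 348000 to 373300 at the other times. As a share of it, the members made up 1.23% ± 0.0774 at ZT12 and 1.22% ± 0.0683 at ZT0 in WT, and 1.05% to 1.11% at the other times. In Liver-RE the sum of all FPKM averaged 388400 at ZT12 and 309800 to 350500 at the other times. The share in Liver-RE was 1.101% ± 0.1104 at ZT12, below 1.16% ± 0.05938 at ZT0 and 1.117% ± 0.02857 at ZT16. At ZT4, ZT8 and ZT20 it was 1.054% to 1.082%.

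Gene by gene, 52 of 82 members had their highest mean at ZT12 in WT, 48 in Liver-RE and 28 in KO, beside 35.8%, 24.3% and 23.5% of all genes. Rpl7, a large subunit protein gene, was at 138, 142 and 155 FPKM at ZT12 in WT and between 89.9 and 126 at all other WT times. With all livers kept, the members' median difference between KO and WT was smallest at ZT12, at 0.05. It was largest at ZT20, at 0.29, where 80 of 82 were higher in KO, against 62.4% of all genes. At those times the medians of all genes were -0.01 and 0.07. The members' median of 0.15 at ZT0 includes KO ZT0 replicate 2. The other KO livers at ZT0 summed to 3712 and 3879 FPKM, below the WT mean of 4334. How the times rank without that library was not computed. Whether the KO and WT difference depended on time was tested only as a difference of 24 h rhythm.

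**Figure D3:**
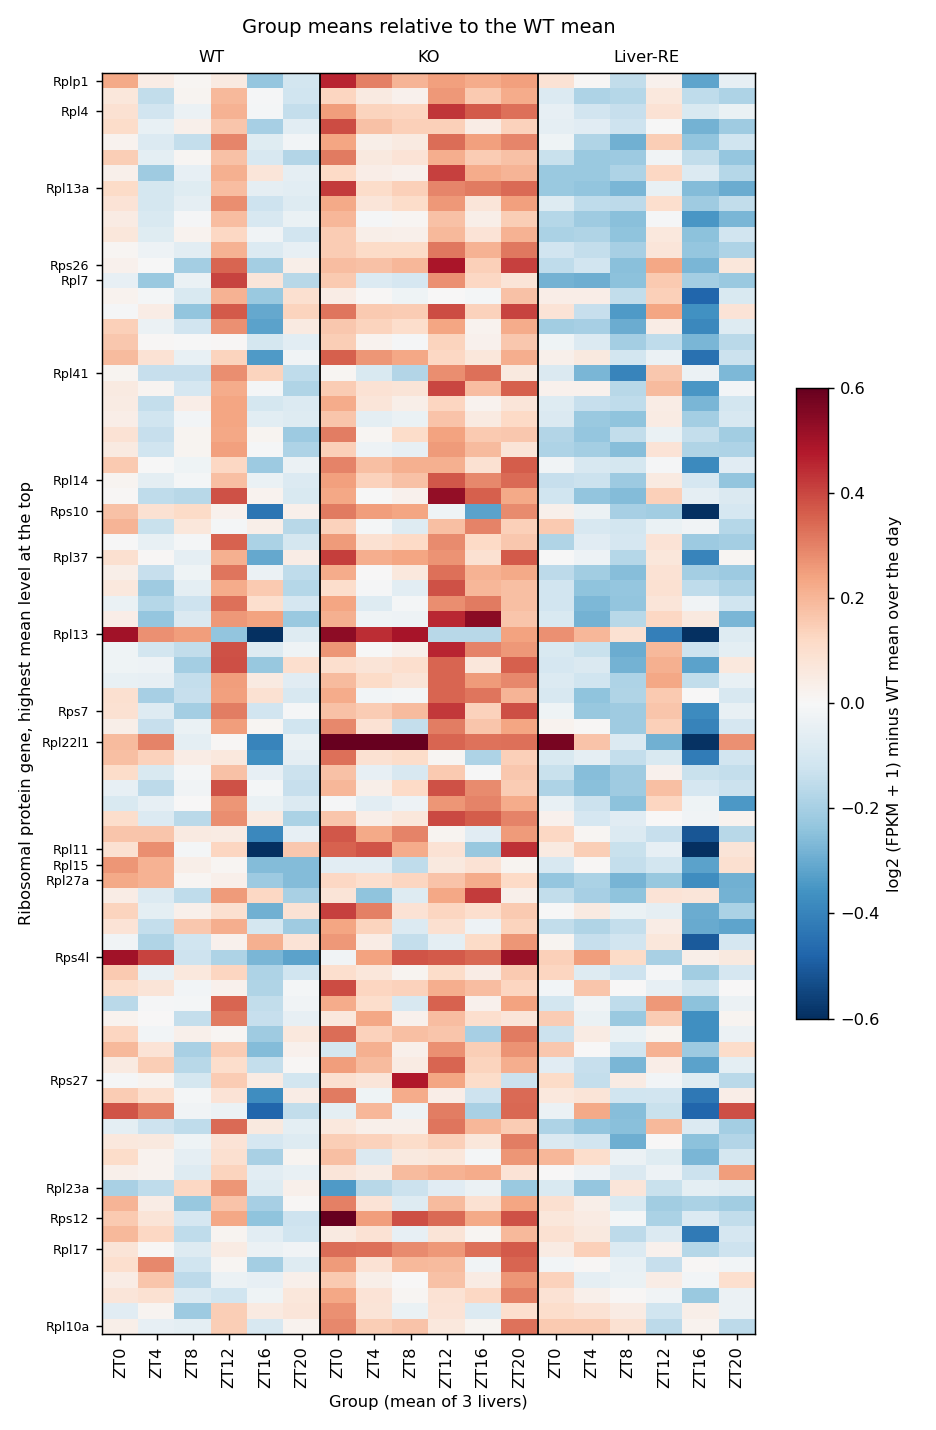
Group means of the 82 members (rows, highest mean level at the top, with some genes described in the text labelled) in 18 groups of 3 livers (columns), as log2(FPKM + 1) minus the mean of the WT groups, red above and blue below. KO columns are mostly red and Liver-RE columns mostly blue, and 52 members have their highest WT mean at ZT12.

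Few members had a 24 h rhythm by cosine fit. In WT, 4 of 82 passed (Rpl13, Rpl15, Rpl27a and Rps4l), against 23.5% of all genes, and 11 had an unadjusted p below 0.05, against 37.6%. In KO none passed, as for all genes (0.00%), and 9 had an unadjusted p below 0.05, against 9.40%. In Liver-RE only Rpl22l1 passed, against 3.82% of all genes, and 3 had an unadjusted p below 0.05, against 21.1%. The fitted peak-to-trough fold of the members had a median of 1.15 in WT, 1.14 in Liver-RE and 1.17 in KO, beside 1.20, 1.16 and 1.13 for all genes. The 4 WT members peaked between ZT2.61 and ZT4.36, away from the ZT12 mode of the family's group means. A single 24 h cosine does not describe a profile with high means at both ZT0 and ZT12.

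Rpl15, a large subunit protein gene, was at 11.6, 14.4 and 11.7 FPKM at ZT0 and 7.49, 8.85 and 8.78 at ZT20 in WT, with no overlap. Its WT peak-to-trough fold was 1.41 with a peak at ZT4.20 (adjusted p = 0.0211, limma). In KO the fold was 1.15 with a peak at ZT16.5, and in Liver-RE 1.15 (adjusted p = 0.803 and 0.581). Rpl15 was also the 1 member whose rhythm differed between KO and WT (adjusted p = 0.0477, limma), against 7.78% of all genes. No member's rhythm differed between Liver-RE and WT (3.51% of all genes) or between Liver-RE and KO (0.238%). At an unadjusted p below 0.05 by limma, the counts were 0 members (17.8% of all genes) and 1 member (12.4%). Rpl27a peaked at ZT4.36 with a fold of 1.36 in WT, and Rps4l at ZT2.61 with a fold of 1.74. In Liver-RE, Rpl22l1 was at 26.4, 26.0 and 15.6 FPKM at ZT0 and 11.4, 11.1 and 6.34 at ZT16, a fold of 1.96 with a peak at ZT0.926 (adjusted p = 0.0433, limma). Its WT fold was 1.44 and did not pass.

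Rpl13, a large subunit protein gene, had the largest WT fold, 2.06 with a peak at ZT3.12 (adjusted p = 0.0129, limma). Its level at ZT12 was 22.8, 22.4 and 9.69 FPKM in WT, 14.2, 22.5 and 10.7 in Liver-RE and 22.3, 23.8 and 10.9 in KO. At ZT16 it was 13.4, 19.1 and 6.66 in WT, 22.1, 12.7 and 7.67 in Liver-RE and 30.4, 21.4 and 8.80 in KO, in order of replicate number. The low value was that of the library numbered 3 in each of these 6 groups. Rps10, a small subunit head protein gene, ran from 16.0 to 27.3 FPKM in these 6 libraries and from 29.4 to 53.1 in the 12 numbered 1 and 2. Rpl41, which encodes the smallest ribosomal protein, ran the other way, from 94.3 to 138 against 65.6 to 92.6. All 6 lay below the 12 others in 2 members and 0.145% of all genes, and above them in 1 member and 0.0170%. Rpl22l1, Rpl11 and Rps15a were lower on average in these 6, and Rps28 and Rpl35 higher, with overlap. Small nucleolar and Cajal body RNAs summed to a median of 948 FPKM in the 6 and 1620 in the 12.

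Without these 6 libraries, a choice made after seeing the data, no member had a rhythm in WT (background 17.2%) or in Liver-RE (1.26%), and no rhythm differed between KO and WT (4.48%). The WT fold of Rpl13 was then 1.54 (adjusted p = 0.0527, limma), that of Rpl15 1.33 (0.0874), that of Rpl27a 1.30 (0.135) and that of Rps4l 1.68 (0.101). The fit without them also rests on fewer livers at ZT12 and ZT16. The level contrasts moved less: 26 members were higher in KO than in WT (background 14.6%) and 65 lower in Liver-RE than in KO (22.5%). With KO ZT0 replicate 2 left out as well, these counts were 18 (14.1%) and 56 (20.5%). What sets these libraries apart was not tested.

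**Figure D4:**
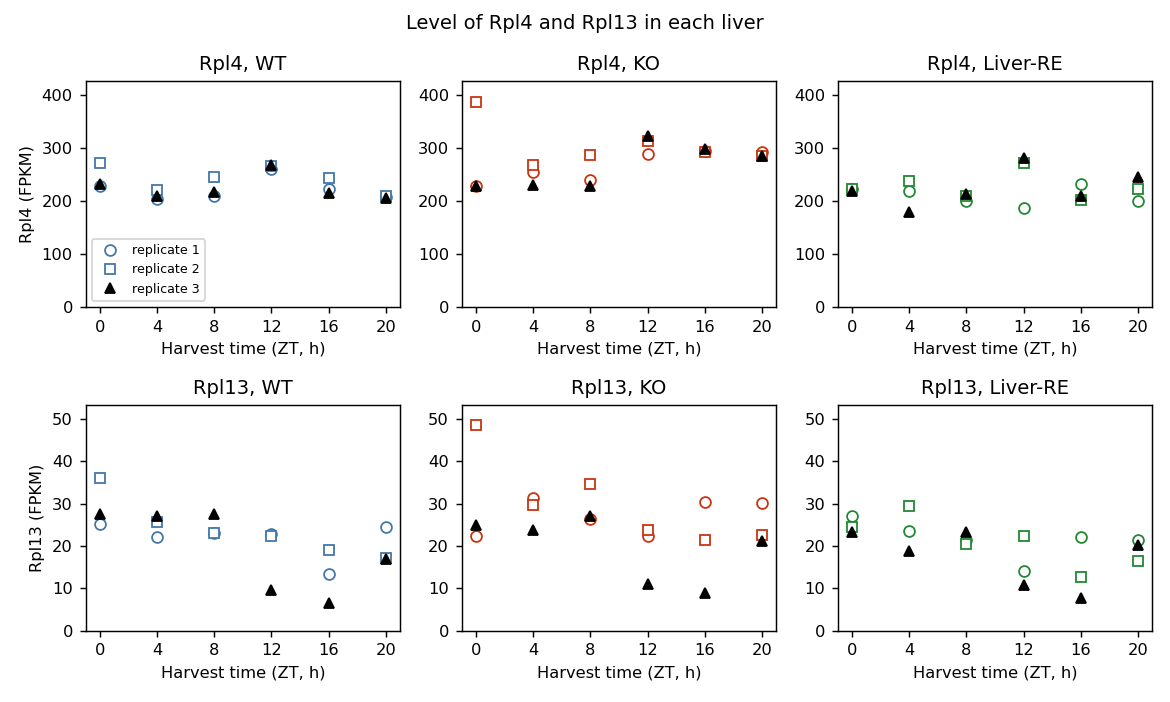
FPKM of Rpl4 (upper row) and Rpl13 (lower row) in each liver by harvest time in hours, 1 column per genotype; replicate 3 is the filled triangle. For Rpl13 the libraries numbered 3 at ZT12 and ZT16 lie between 6.66 and 10.9 and all others of those times between 12.7 and 30.4, while for Rpl4 the sets overlap.

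KO ZT0 replicate 2 exceeded both other livers of its group in 79 of 82 members, against 58.5% of all genes. Its median log2 difference from their mean was 0.92 for the members and 0.20 for all genes. It was 0.55 for 843 other genes with transcripts of up to 1000 bases and 0.19 for longer ones. Rpl4 was at 388 FPKM in this liver and at 228 in both others, and Rplp1 at 598, the highest value of any liver. Small nucleolar and Cajal body RNAs summed to 4603 FPKM in it and to 1437 and 1557 in the others. For the level contrasts with KO and some single genes, its part is given by the results without it. Counts by harvest time, subunit, start tract, window class and other gene lists were made with it, as were the correlations between members.

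The members' deviations from their group means were correlated. Across 54 libraries, with group means taken out, the median pairwise correlation of members was 0.55, and 57 members had a median correlation above 0.5 with the others. These correlations share each library's scaling and are given as a description. They include KO ZT0 replicate 2, in which most members were high together, and were not computed without it. No value for all genes was computed beside them. Rps3 (0.73), Rplp0 (0.72) and Rps19 (0.72) were the closest to the rest. Rpl10a (-0.04), Rps27 (-0.02), Rpl23a (0.05) and Rpl24 (0.12) stood apart, and each is listed at under 3 FPKM.

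The listed levels spanned a wide range although the proteins are needed in near-equal numbers. The highest means were Rplp1 at 283 FPKM, Rpl8 at 250, Rpl4 at 243, Rps14 at 229 and Rpl32 at 225. The lowest were Rpl10a at 0.576, Rpl24 at 0.621, Rpl27 at 0.847, Rpl5 at 0.970 and Rps13 at 1.19, or about 13 to 16 reads per library for the lowest 3. Ribosomal protein genes have many processed pseudogenes, so 100-base windows of each member's transcript, the read length, were looked up at all other annotated transcripts. Rpl32 had 100% of its windows at no other annotated locus and Rpl8 98.3%, while Rpl10a had 12.9%, Rps12 11.1% and Rps27 1.63%. The median level was 2.15 FPKM in 14 members with under 25% such windows, 10.4 in 17 members with 25% to 50%, 21.2 in 25 with 50% to 75%, and 88.6 in 25 with over 75%. Spearman's rho between level and unshared share was 0.66 across 81 members, as a description, since genes are not independent replicates. How reads that match several loci were counted is not given in the sources used here, so levels of members with few unshared windows are uncertain. In these classes, in the same order, 8 of 14, 11 of 17, 19 of 25 and 22 of 25 members were lower in Liver-RE than in KO, with medians from -0.22 to -0.30. In KO against WT, 5, 6, 6 and 9 members were higher, with medians from 0.14 to 0.17.

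**Figure D5:**
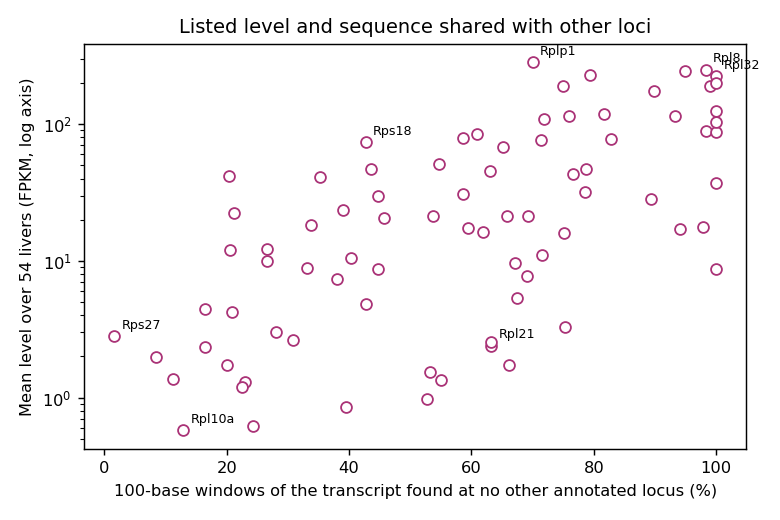
Mean FPKM over 54 livers (vertical log axis) against the percentage of 100-base transcript windows found at no other annotated locus (horizontal axis), 1 point per member (n = 81). Members with few unshared windows, such as Rps27 and Rpl10a, are listed low, and Rpl8 and Rpl32 are listed high.

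Members with and without a start tract gave these counts. Of 28 members with a tract, 8 were higher in KO than in WT and 22 lower in Liver-RE than in KO. Of 33 without one, the counts were 10 and 23. Median log2 fold changes were 0.15 and 0.16 for KO against WT, and -0.28 and -0.25 for Liver-RE against KO. The difference between the 2 sets was not tested.

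Other genes of the translation machinery were read beside the members and the shares over all genes, which were 16.5% higher in KO than in WT and 26.7% lower in Liver-RE than in KO. Of 21 translation factor genes with TOP mRNAs, 10 were higher and 1 lower in KO than in WT, and 17 were lower in Liver-RE than in KO. Eef1a1, which delivers aminoacyl-tRNA, was at 975 FPKM in WT, 886 in Liver-RE and 1125 in KO, with log2 fold changes of 0.20 ± 0.06 in KO against WT and -0.34 ± 0.06 in Liver-RE against KO. Of 11 snoRNA host RNAs, which carry snoRNAs in their introns and often start with a TOP tract, 5 were higher in KO and 9 lower in Liver-RE than in KO. Gas5 was at 43.0 FPKM in WT, 36.7 in Liver-RE and 55.9 in KO, and was lower in Liver-RE than in both others. Of 41 genes for rRNA processing and subunit assembly, 6 were higher in KO, a share below that of all genes, and 19 lower in Liver-RE than in KO. Among the 6, Nhp2 and Nop10, both parts of the box H/ACA particle, had log2 fold changes of 0.39 ± 0.07 and 0.40 ± 0.10 in KO against WT. Of 14 genes for RNA polymerase I and rRNA transcription, none passed in KO against WT and 5 were lower in Liver-RE than in KO.

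Genes that control TOP mRNAs were mixed. Of 21 mTORC1 and LARP1 genes, 4 were higher and 2 lower in KO than in WT. Eif4ebp1, which encodes a repressor of cap-dependent translation, was lower in KO (log2 fold change -0.36 ± 0.06) and higher in Liver-RE than in KO (0.29 ± 0.06). Larp1 was higher in KO (0.22 ± 0.07). Ddit4, an mTORC1 inhibitor gene, was lower in Liver-RE than in WT (-0.56 ± 0.16). Of 77 mitochondrial ribosomal protein genes, 23 were higher in KO than in WT, none lower, and 32 were lower in Liver-RE than in KO. Of 47 proteasome subunit genes, KO exceeded WT in 5 and fell below it in 2, and 11 were lower and 2 higher in Liver-RE than in KO, shares below those of all genes for the 5 and the 11.

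Markers of other liver cells were read in the same contrasts. Of the 14 markers of Kupffer cells and macrophages, 12 fell in KO against WT, and their summed level ran from 344 to 498 FPKM in WT, 213 to 517 in Liver-RE and 209 to 456 in KO. In Liver-RE, 5 were lower than in WT and none passed against KO. The 2 cholangiocyte markers measured, Sox9 and Spp1, were higher in KO than in WT and lower in Liver-RE than in KO, with sums of 11.4 to 37.8 FPKM in WT, 8.30 to 20.4 in Liver-RE and 14.1 to 75.3 in KO. The defining cholangiocyte genes Krt7, Krt19 and Epcam did not reach the minimum of 0.5 FPKM. Of 12 endothelial markers, 1 was higher and 1 lower in KO than in WT, and none passed in Liver-RE against KO, with sums of 169 to 249 FPKM in WT and 148 to 304 in KO. Of 11 stellate cell and fibroblast markers, 3 were lower in KO than in WT and 1 lower in Liver-RE than in KO. Of 4 lymphocyte markers, 1 was lower in KO than in WT and none passed in Liver-RE against KO. Against WT, Liver-RE was higher in 1 and lower in 1 endothelial marker, higher in 1 and lower in 2 stellate markers, and lower in 1 lymphocyte marker. Of 9 proliferating cell markers, none passed in any level contrast. The part of these markers in the ribosomal protein results was not tested.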

How the data were processed

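RNA-seq of 54 mouse livers was analysed. Per the labels' protocols, total RNA was extracted with TRIzol, depleted of rRNA and made into stranded libraries. CASAVA 1.8.2 and mm10 are named in the submitters' processing notes. Aligner, counter and annotation: not given in the sources used here. Per the file headers, the deposited data are 1 table of FPKM values per gene and library, with no counts, so depth was estimated from the commonest value of low genes times transcript length (GENCODE), and is rough.

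Genes with a mean of at least 0.5 FPKM (11759; 6320 left out) were tested on log2(FPKM + 1), so folds of low genes are understated. In limma 3.58.1 (R 4.3.3), 1 model over all livers held a mean, 24 h cosine and 24 h sine per genotype, with an intensity trend. Level contrasts and F tests of rhythm and of rhythm differences were adjusted by Benjamini-Hochberg over all genes, threshold 0.05. The procedure was tested on simulated data with independent noise and added changes larger than most changes of the members. That test does not cover smaller changes, correlated genes or libraries that stand apart. A level is the mean over the fitted day, and ± SE follows each log2 fold change.

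Nothing in the labels ties a library to a separate extraction, so p-values measure the spread between these samples. The members and lists were chosen with earlier results of these data known. Named are variant copies, the 5 highest and lowest members, the 10 most extreme passing members per level contrast, the members with the smallest p per rhythm test, and up to 4 genes per other list; Rps6, Rpl11, Rpl7, Rps10, Rpl41 and others outside this were chosen after their values were seen. Alternatives were a pseudocount of 0.1, no filter, quantile and median scaling, leaving out the 20 highest genes, robust variance, group means, only the genotypes concerned, a replicate block and leaving out each library. Figures were drawn with matplotlib 3.10.9. Values of some single genes are not reported here.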

Additional observations from a re-analysis of the deposited data

Results flagged for a closer look

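The rhythm of Rpl15 differed between KO and WT (adjusted p = 0.0477, limma, a test of the difference in cosine and sine). The fitted peak-to-trough fold was 1.41 with a peak at ZT4.20 in WT and 1.15 with a peak at ZT16.5 in KO. The call was lost on leaving out any of 31 single libraries and without the 6 libraries numbered 3 of ZT12 and ZT16, and it is 1 of 82 members beside 7.78% of all genes tested.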

How the results depend on the processing

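The counts of members higher in KO than in WT (27) and lower in Liver-RE than in KO (60) stayed within 1.5 times under every planned setting that kept all libraries; they were 30 and 47 with quantile normalization, 27 and 47 with median scaling and 21 and 56 with no filter. Leaving out single libraries gave 14 to 32 and 50 to 66. The 1 member lower in KO than in WT was lost without the 6 libraries numbered 3 of ZT12 and ZT16 (0) and without these and KO ZT0 replicate 2 (7 libraries, 0), with a range of 0 to 1 on leaving out single libraries. Members lower in Liver-RE than in WT (2) were 1 with the 20 highest genes left out, median scaling, no filter, quantile normalization or WT ZT8 replicate 2 and Liver-RE ZT20 replicate 1 left out, 6 with the 7 libraries left out, and 1 to 5 on leaving out single libraries. Rhythmic members in WT (4) were 0 without the 6 libraries, 1 on group means, 8 with only the genotypes concerned and 7 with quantile normalization, and 2 to 7 on leaving out single libraries. The single rhythmic member in Liver-RE was lost (0) without the 6 or 7 libraries, on group means, with no filter and with only the genotypes concerned; there were 3 with quantile normalization and 0 to 2 on leaving out single libraries. The rhythm difference of KO and WT was lost (0) without the 6 libraries, on group means, with no filter and with only the genotypes concerned, with 0 to 2 on leaving out single libraries. Settings with fewer livers or group means rest on fewer samples; the cause of the other changes was not tested. Directions turned only where values were near 0: Rps27l in KO vs WT (-0.0231 without KO ZT0 replicate 2 to 0.0819 without KO ZT0 replicate 1), and in Liver-RE vs WT Rpl22l1 (-0.0462 to 0.0597 on leaving out single libraries, -0.0479 with the 2 libraries left out), Rpl36al (0.0085 with median scaling, 0.0059 with quantile normalization) and Rps4l (-0.00174 without WT ZT20 replicate 2 to 0.107 without Liver-RE ZT0 replicate 3). Over all genes, same-numbered libraries had a mean correlation of 0.04 (lowest -0.40), so the numbers were not taken as pairs, although 29 of 54 libraries were closest to their own number and those numbered 3 of ZT12 and ZT16 shared deviations across genotypes; with a replicate block the counts were 29, 63, 2, 4, 1 and 1 in place of 27, 60, 2, 4, 1 and 1. The depth is an estimate and members under 1 FPKM rest on few reads.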
